A study of Mus musculus with 12 samples.

Results

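The genes described here are 10 genes that mark macrophages, the tissue-resident phagocytes, measured in cultures of mouse aortic adventitial fibroblasts. They are Ptprc, Cd68, Lyz2, Adgre1, Csf1r, Mrc1, C1qa, C1qb, C1qc and Tyrobp, and they were 10 of the 54352 gene symbols in the count table. The list was chosen by name after 1 culture, replicate 2 of the untreated ascending fibroblasts, had been seen to hold more of their reads than the other cultures. Its excess over its replicates is therefore given as a description with no test. Primary fibroblasts were grown from the adventitia of wild-type C57Bl/6 mice aged 14 weeks, from the ascending or the descending aorta, and received solute control or TGFβ at 10 ng/mL for 48 h. Each of the 4 groups (descending control, descending TGFβ, ascending control, ascending TGFβ) had 3 libraries. No group carried a transgene or a deletion. The cells grew out of minced adventitia, were passaged and were not sorted. The methods and the results of the paper differ in the number of passages. No source states whether replicates came from separate animals, so the p-values below measure the spread between cultures.

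Macrophages populate the adventitia from embryonic life on, and they adhere firmly to plastic, so cells that grow out of minced vessel wall can carry them along. They depend on CSF1 receptor signalling, which adventitial fibroblasts sustain by secreting CSF1 and IL-34. Among the 10 genes, Ptprc encodes CD45, the phosphatase on all leukocytes, and Adgre1 encodes the F4/80 antigen used to identify mouse macrophages. Cd68 encodes a glycoprotein of the lysosome and Lyz2 the secreted lysozyme M of myeloid cells. Csf1r encodes the receptor for CSF1 and IL-34. Mrc1 encodes the mannose receptor CD206, which takes up glycoproteins. C1qa, C1qb and C1qc encode the A, B and C chains that assemble into C1q, the recognition unit of the classical complement pathway, which macrophages secrete. Tyrobp encodes DAP12, the adaptor through which receptors such as TREM2 signal.

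The C1q genes lie side by side on the minus strand of chromosome 4, C1qb at chr4:136880129-136886187, C1qc at chr4:136889804-136893065 and C1qa at chr4:136895917-136898803 (GENCODE vM21, GRCm38). The other members shown with positions are Ptprc at chr1:138062861-138175708, Cd68 at chr11:69664213-69666153, Lyz2 at chr10:117277331-117282321, Adgre1 at chr17:57358691-57483527, Mrc1 at chr2:14229392-14332057, and Tyrobp at chr7:30413760-30417585. Levels per kilobase below use the annotated exon length, and no source used here states which features were counted.

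Promoters from RefSeq (GRCm38.p6) were available for 6 of the 10 genes. They are shown because members that move together can share promoter letters. The core GAGGAA, which forms part of the site of PU.1, the transcription factor that myeloid genes depend on, was searched on both strands from 250 bases before to 50 bases after each start. It stood in a promoter of 5 of those 6 genes (Ptprc, Cd68, Mrc1, C1qb and C1qc, not Lyz2). It also stood in 28.3% of all 32851 mouse promoters, and 31.3% of 27025 genes had it in at least 1 promoter. The longer GAGGAAGT, which contains that core, was found in C1qc alone of the 6, and in 3.20% of all promoters. A match in letters is not a binding site. In the sequences below, 5′ to 3′ on the strand of the gene, capitals mark GAGGAA or its reverse complement TTCCTC. They cover chr4:136886151-136886450, chr4:136892865-136893164, chr11:69666121-69666420 (all minus strand) and chr2:14229164-14229463 (plus strand).
C1qb: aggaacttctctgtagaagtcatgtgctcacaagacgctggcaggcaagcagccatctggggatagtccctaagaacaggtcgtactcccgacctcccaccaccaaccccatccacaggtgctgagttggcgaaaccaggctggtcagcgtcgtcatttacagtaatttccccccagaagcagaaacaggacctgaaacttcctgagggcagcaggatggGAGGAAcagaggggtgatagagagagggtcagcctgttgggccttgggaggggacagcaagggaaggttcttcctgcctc
C1qc: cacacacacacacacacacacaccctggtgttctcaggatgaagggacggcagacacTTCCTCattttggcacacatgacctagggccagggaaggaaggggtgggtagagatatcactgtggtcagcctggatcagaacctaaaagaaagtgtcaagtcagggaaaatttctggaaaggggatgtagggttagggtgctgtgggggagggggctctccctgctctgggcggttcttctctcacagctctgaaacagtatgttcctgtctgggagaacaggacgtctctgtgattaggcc
Cd68: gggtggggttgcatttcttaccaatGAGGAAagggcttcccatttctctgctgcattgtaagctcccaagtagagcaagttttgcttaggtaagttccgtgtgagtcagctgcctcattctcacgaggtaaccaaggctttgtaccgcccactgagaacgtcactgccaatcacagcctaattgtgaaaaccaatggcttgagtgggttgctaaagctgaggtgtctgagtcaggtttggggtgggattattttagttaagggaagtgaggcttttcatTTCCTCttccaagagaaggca
Mrc1: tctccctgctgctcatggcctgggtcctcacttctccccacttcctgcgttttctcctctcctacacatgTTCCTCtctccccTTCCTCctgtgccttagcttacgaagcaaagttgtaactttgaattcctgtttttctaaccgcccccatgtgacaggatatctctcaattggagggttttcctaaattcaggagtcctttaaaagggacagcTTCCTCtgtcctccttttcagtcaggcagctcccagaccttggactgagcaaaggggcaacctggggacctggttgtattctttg

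Libraries held 16250126 to 23892943 counts. Descending control replicate 3 stood apart from the other 11 before any of these genes was considered. It had 13031 detected genes against 19337 to 20931 elsewhere, 5.71% of its detected genes had 1 to 10 counts against 30.9% to 32.2%, and mitochondrial genes took 11.02% of its counts against 0.703% to 1.03%. Values of 0 in that library are therefore given as listed, and each comparison of the 10 genes that uses it is also given without it. The summed level of 12 fibroblast genes, among them Fn1, Col1a1, Col1a2 and Col3a1, was 29052 to 45510.3 CPM, against at most 795.1 CPM for any list of leukocyte genes. Smooth muscle cells also express these 4 genes, and 7 smooth muscle genes summed to 1580 to 8429 CPM, most of it from Acta2. Pdgfra, a receptor that marks fibroblasts, had 52.0 to 378 CPM and Myh11, the myosin of smooth muscle, 12.5 to 82.2 CPM. Depth behind the macrophage genes was low, and a count of 3, taken as the floor of a library, corresponded to 0.119 to 0.203 CPM (counts scaled by the TMM-adjusted library size). Intervals on counts cover counting error only.

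All 10 genes had at least 1 count in every library except descending control replicate 3, though Tyrobp, with 1 count in descending TGFβ replicate 3, was under the floor there. In descending control replicate 3, Ptprc, Adgre1, Mrc1, C1qa and Tyrobp were listed at 0. Together the 10 genes took 0.00147% to 0.00700% of the counts in 11 libraries and 0.0443% in ascending control replicate 2. Their summed level was 46.6, 56.1 and 30.0 CPM in descending control and 23.7, 29.9 and 15.6 CPM in descending TGFβ. In ascending control it was 63.6, 414.8 and 65.5 CPM, and in ascending TGFβ 48.8, 42.2 and 33.4 CPM. The mean of the sum over controls was 44.2 ± 13.2 CPM for descending and 181.3 ± 202.2 CPM for ascending cultures, and over TGFβ cultures it was 23.1 ± 7.21 and 41.5 ± 7.70 CPM (SD, n = 3 each). Without replicate 2 the ascending control mean was 64.5 ± 1.34 CPM (SD, n = 2). The SD of the ascending control group therefore came almost wholly from 1 culture. Lyz2 made up 47.0% to 70.2% of the sum, and without it the range was 8.26 to 24.9 CPM in 11 libraries and 123.7 CPM in ascending control replicate 2. In bulk RNA, more macrophages and more RNA of these genes per macrophage cannot be told apart.

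**Figure D1:**
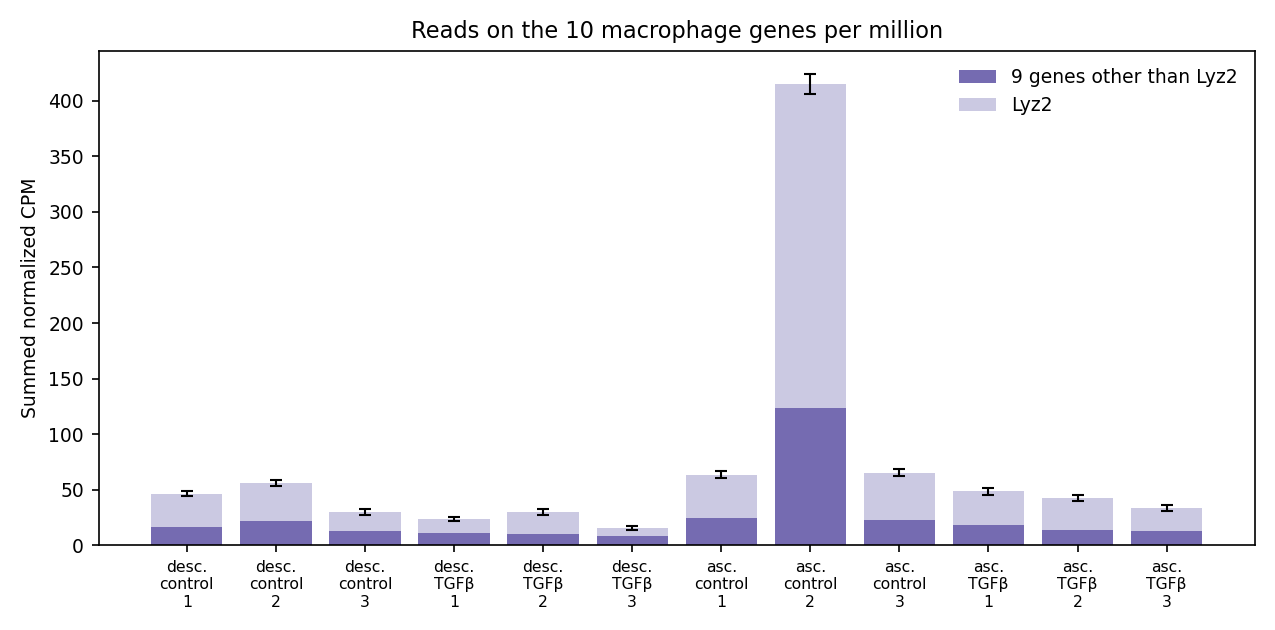
Summed level of the 10 macrophage genes in each library (bars from 0, normalized CPM, Lyz2 in the light part), with exact Poisson 95% intervals for counting error on the sum. Ascending control replicate 2 reaches 414.8 CPM, and the other 11 libraries lie between 15.6 and 65.5 CPM.

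Per kilobase of exon, Lyz2 had the highest mean over the 12 libraries, at 36.3 CPM per kb. It was followed by Cd68 at 3.26, C1qb at 3.23, C1qa at 2.62, Tyrobp at 1.72 and C1qc at 1.59 CPM per kb. Csf1r at 0.863, Adgre1 at 0.659, Mrc1 at 0.335 and Ptprc at 0.0503 CPM per kb came last. Without ascending control replicate 2, Lyz2 had 19.5 CPM per kb, Cd68 2.27, C1qb 1.89, C1qa 1.43, C1qc 0.839 and Tyrobp 0.768, so the order of the last pair turned. The means of Cd68 and C1qb differed by less than their spread over libraries.

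Ascending control replicate 2 had the highest level of each of the 10 genes among all 12 libraries. The leukocyte marker Ptprc had 19, 87 and 25 counts in ascending control replicates 1 to 3, or 0.822, 4.34 and 1.21 CPM. Adgre1 had 46, 250 and 42 counts, or 1.99, 12.5 and 2.04 CPM. For both, replicates 1 and 3 lay close together and replicate 2 above them, at 4.31 times their pooled level for Ptprc (95% interval 2.97 to 6.34) and 6.19 times for Adgre1 (4.84 to 7.99). The intervals come from the exact binomial test of the counts, assume no variation between cultures and do not test the treatment or the site.

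Of the lysosomal and secreted products, Cd68 had 83, 356 and 75 counts, or 3.59, 17.8 and 3.64 CPM. Lyz2 had 894, 5836 and 870 counts, or 38.7, 291.1 and 42.3 CPM. Replicate 2 was thus 4.91 times (4.06 to 5.96) above the pooled level of the other cultures for Cd68 and 7.21 times (6.84 to 7.61) for Lyz2. Lyz2 shares 15.4% of its 50-base stretches with other transcripts, mostly those of its neighbour Lyz1, which encodes lysozyme P. Lyz1 had 4, 59 and 3 counts in the 3 cultures, few beside those of Lyz2.

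Csf1r differed least, with 133, 292 and 140 counts, or 5.75, 14.6 and 6.80 CPM. Its ratio of 2.33 (1.97 to 2.76) was the lowest among the members. The interval covers counting error only, and the difference between members was not tested. Hmgxb3 overlaps 15.1% of the exonic bases of Csf1r on the opposite strand, and no source used here states whether counting used strand. Hmgxb3 had 35.5, 35.1 and 32.5 CPM in the same cultures, a ratio of 1.03 (0.940 to 1.13). It had 45.5, 48.5 and 45.9 CPM in the ascending TGFβ cultures. In descending cultures it had 35.4, 34.6 and 5.48 CPM without and 42.8, 49.9 and 48.5 CPM with TGFβ. Its part in the Csf1r counts, here and in the comparisons below, was not tested. The mannose receptor gene Mrc1 had 38, 232 and 41 counts, or 1.64, 11.6 and 1.99 CPM, a ratio of 6.40 (4.94 to 8.37).

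The genes of the C1q chains stood above the other replicates by like amounts. C1qa had 78, 327 and 33 counts, or 3.37, 16.3 and 1.60 CPM, a ratio of 6.42 (5.16 to 8.04). C1qb had 77, 392 and 57 counts, or 3.33, 19.6 and 2.77 CPM, a ratio of 6.38 (5.23 to 7.82). C1qc had 76, 381 and 39 counts, or 3.29, 19.0 and 1.90 CPM, a ratio of 7.22 (5.85 to 8.98). Replicates 1 and 3 differed more for C1qa, by 2.10-fold, than for any other member. Tyrobp had 26, 163 and 25 counts, or 1.12, 8.13 and 1.21 CPM, a ratio of 6.97 (5.06 to 9.74). For the sum of the 10 genes the ratio was 6.44 (6.17 to 6.72), and without Lyz2 it was 5.13 (4.78 to 5.52).

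**Figure D2:**
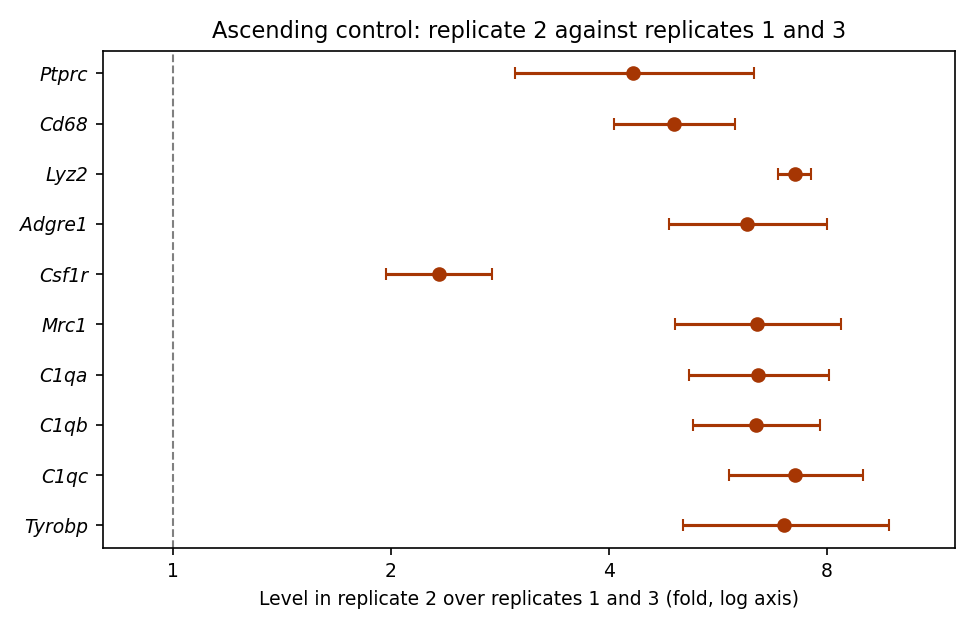
Level of each gene in ascending control replicate 2 over the pooled level in replicates 1 and 3 (fold, log2-spaced axis, with exact 95% intervals for counting error). Csf1r lies lowest at 2.33, the other 9 genes lie between 4.31 and 7.22, and the dashed line marks equal levels.

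An excess of this size was uncommon among genes of that library but not limited to the 10. Of 13309 genes with at least 20 counts in 1 or more of the ascending control libraries, 182 (1.37%) were at least 2-fold above both other replicates in replicate 2. The same rule found 28 in replicate 1 and 18 in replicate 3, and 35 genes were at least 2-fold below both others in replicate 2. All 10 macrophage genes were among the 182, as they had been chosen for it, at ranks 54 to 171 by ratio among 12824 genes. Their median ratio to the higher of the other replicates was 5.80, against 0.966 over all genes.

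The genes outside the list with the largest ratios were led by Clec4d, a C-type lectin of myeloid cells, at 24.3 times the higher of the other replicates (2, 71 and 3 counts in replicates 1 to 3). Atp6v0d2, a proton pump subunit abundant in macrophages and osteoclasts, followed at 21.2 times (6, 124 and 6 counts). Tlr8, a sensor of single-stranded RNA, had 2, 55 and 0 counts, and Siglec1, the sialoadhesin of tissue macrophages, had 9, 100 and 8. The scavenger receptor gene Cd36 had 54, 799 and 48 counts. The list also held Lyz1, Ncf1, Fgl2, Wfdc17, Cxcr4, Dock2, Fcrls and Rac2, genes known from leukocytes. It further held Igfbp5, a secreted binding protein of insulin-like growth factors that fibroblasts also make, with 63, 936 and 43 counts.

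Many other myeloid genes were also higher in that library. Of 46 further macrophage and myeloid genes, 36 had at least 20 counts in an ascending control library. Of those, 28 were at least 2-fold above both other replicates in replicate 2, against 1.37% of 13309 genes. The median ratio of the 36 to the higher replicate was 5.46. Some met the minimum in replicate 2 only, such as Cd163 (2, 41 and 4 counts) and Ncf1 (4, 59 and 4), which favours high ratios. Others met it in each culture, such as Mpeg1 (124, 790 and 99 counts) and Ctss (65, 562 and 49). Spi1, which encodes PU.1, had 0.605, 3.19 and 0.972 CPM, and Cybb, the catalytic subunit of the phagocyte oxidase, had 1.30, 11.6 and 1.75 CPM. Trem2, a receptor that signals through the adaptor encoded by Tyrobp, had 1.56, 10.4 and 1.07 CPM. Genes of that list with a high mean level stood out less. Gpnmb had 229.3, 311.9 and 237.7 CPM, Apoe 44.2, 129.8 and 38.3 and Ctsc 16.3, 18.6 and 14.9 CPM, and only Apoe of these was 2-fold higher.

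Of 14 monocyte and dendritic cell genes, 2 had at least 20 counts in an ascending control library, and neither was 2-fold higher in replicate 2. The 14 genes summed to 9.93 CPM in replicate 2 against 9.99 and 10.3 CPM in replicates 1 and 3, most of it from Zbtb46 (8.13 against 7.83 and 8.07 CPM), and Ccr2, Ly6c2, Flt3, Clec9a and Cd209a were listed at 0 in all 12 libraries. H2-Eb1, a class II antigen presentation gene, had 0.199 CPM in replicate 2 against 1.12 and 0.875 CPM in replicates 1 and 3. The summed level of 15 T, NK and B cell genes was 0.0997 CPM in replicate 2 and at most 2.84 CPM in any library. The 8 neutrophil genes summed to 0.648 CPM, all of it from Csf3r, which macrophages also express. The 7 mast cell genes summed to 3.14 CPM in replicate 2 against 0.519 and 0.923 CPM in replicates 1 and 3. Fibroblast genes were alike in the 3 cultures, with a median ratio of replicate 2 to the higher of the others of 1.05 over 12 genes. The exception among them was Lum, which encodes the matrix proteoglycan lumican, at 5.66, 39.7 and 7.77 CPM. Of 5 adipocyte genes, 4 were at least 2-fold above both other replicates in replicate 2, against 1.37% of 13309 genes. The median ratio of the 5 to the higher replicate was 2.69. Those 4 genes reached 20 counts in replicate 2 only. Of 2 endothelial genes with at least 20 counts, 1 was 2-fold higher. It was Vwf (3, 21 and 10 counts), which also reached 20 counts in replicate 2 only. The part of these genes in the excess was not tested.

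**Figure D3:**
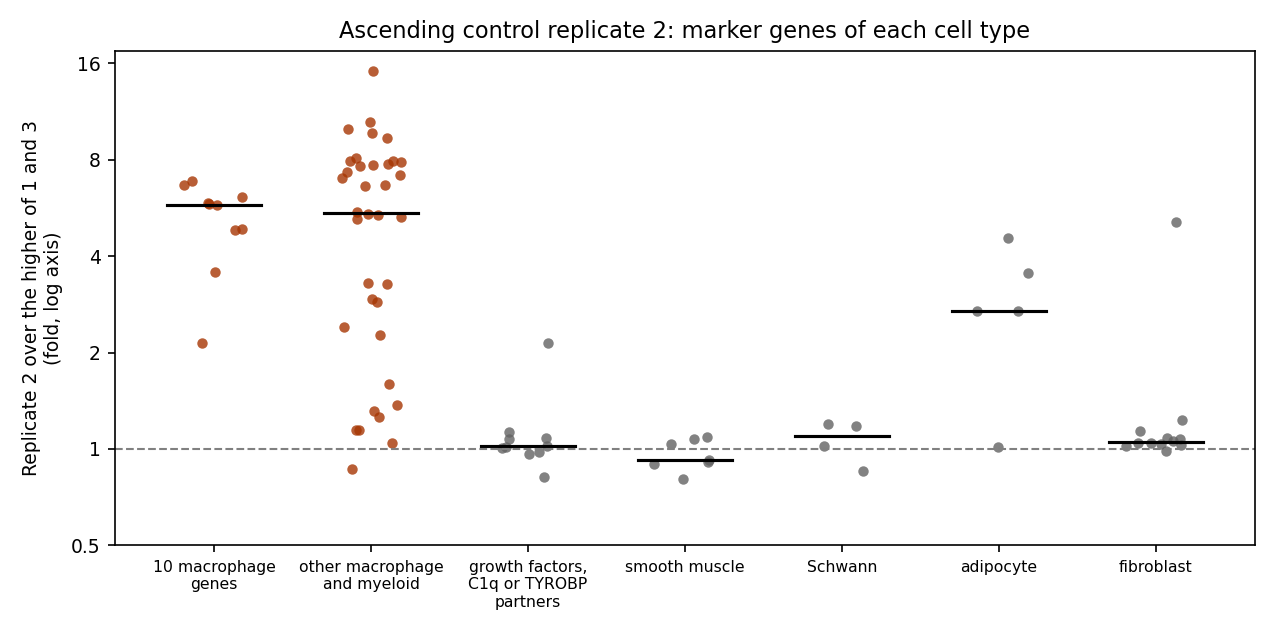
Ratio of the level in ascending control replicate 2 to the higher of replicates 1 and 3 (log2-spaced axis) for each marker gene with at least 20 counts in an ascending control library, by list, with the median as a bar. Macrophage genes have a median of 5.80 and other myeloid genes 5.46, adipocyte genes have 2.69, and the medians of the growth factor, smooth muscle, Schwann and fibroblast lists are near 1. The growth factor list includes Csf1r.

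Over the 45 pairs of members, Pearson's r of log2 CPM over 12 libraries ranged from 0.32 to 0.96 with a median of 0.82. Without ascending control replicate 2 the range was -0.40 to 0.93 with a median of 0.57, and without descending control replicate 3 as well it was 0.07 to 0.94 with a median of 0.66 over 10 libraries. The genes outside the list with the pattern most like their mean log2 CPM, among 16254 ranked, were Cybb (r = 0.98), Cd84 (0.97), Tnfaip8l2 (0.96), Trem2 (0.96), Hk3 (0.95), Cd48 (0.95), Blnk (0.95), Itgb2 (0.95), F13a1 (0.94) and Spi1 (0.94). Over the 10 libraries without both, the r of these genes ranged from 0.76 to 0.94. These correlations share libraries and depth and describe the 12 cultures only.

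**Figure D4:**
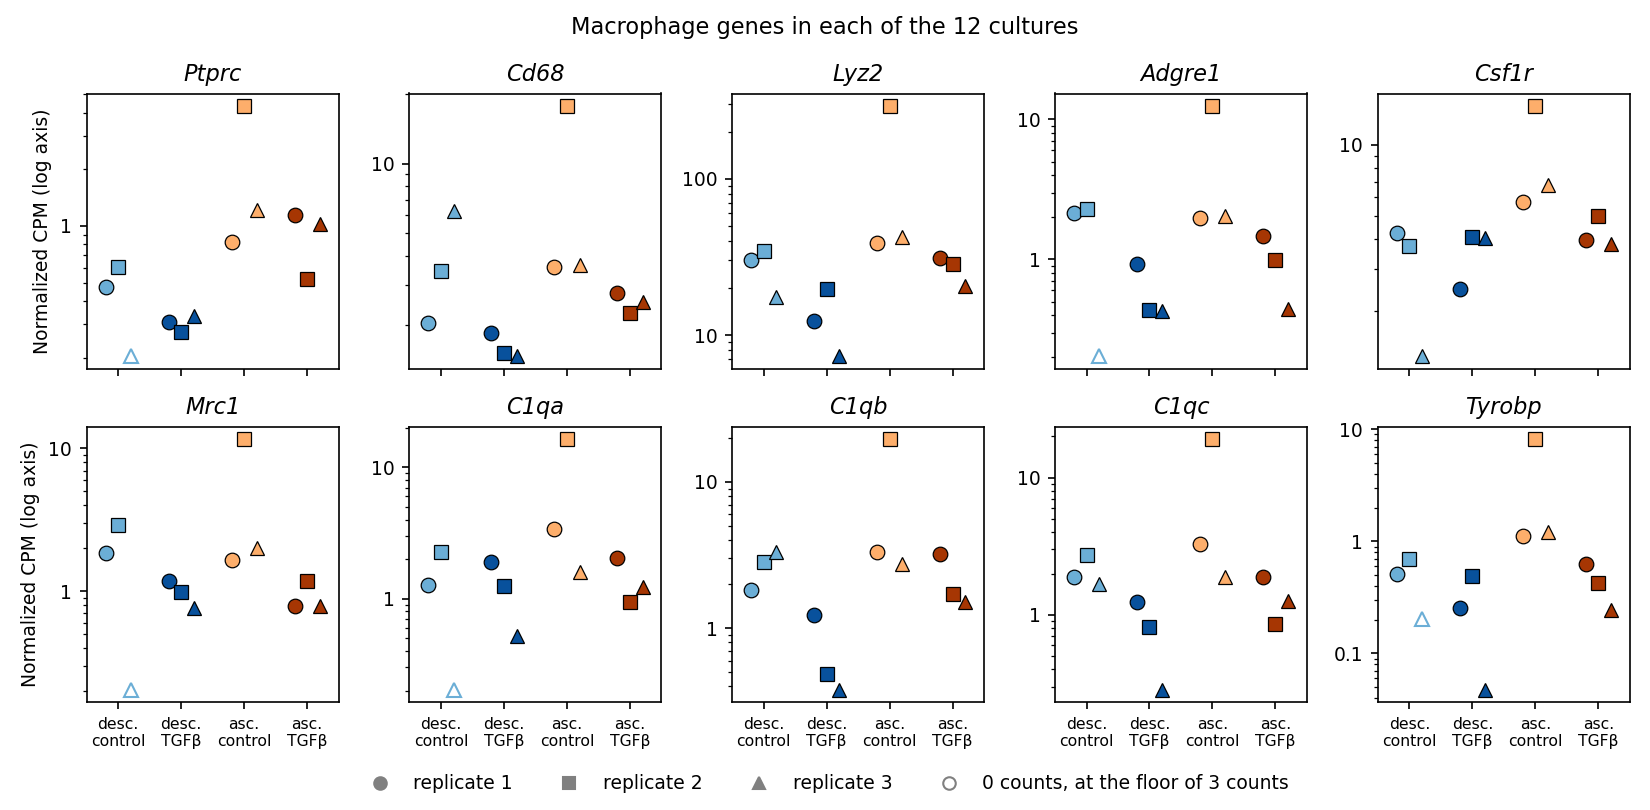
Normalized CPM of each macrophage gene in each library (log axes that differ between panels, symbols by replicate, open symbols at the floor of 3 counts where a library had 0 counts). Replicate 2 of ascending control is the highest point in each of the 10 panels, and the open symbols are all descending control replicate 3.

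The response to TGFβ in descending fibroblasts did not involve the culture that had prompted the list. In descending control replicates 1 to 3 and then descending TGFβ replicates 1 to 3, Lyz2 had 30.3, 34.6 and 17.5 against 12.3, 19.6 and 7.31 CPM. Cd68 had 2.05, 3.45 and 6.22 against 1.85, 1.52 and 1.47 CPM. C1qb had 1.82, 2.84 and 3.31 against 1.23, 0.490 and 0.380 CPM. All treated libraries lay below all controls for Cd68 and C1qb but not for Lyz2, whose control replicate 3 fell among the treated ones. C1qc, with 1.90, 2.72 and 1.69 against 1.23, 0.817 and 0.285 CPM, also showed no overlap. Such full separation downward held for 3 of the 10 genes, against 17.8% of 15642 genes.

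With all 6 libraries the other genes overlapped between the groups. Adgre1 had 2.13, 2.28 and 0 against 0.923, 0.436 and 0.427 CPM. Mrc1 had 1.86, 2.89 and 0 against 1.18, 0.980 and 0.759 CPM. Both were lower in all treated cultures than in control replicates 1 and 2, and listed at 0 in control replicate 3. C1qa had 1.26, 2.28 and 0 against 1.90, 1.25 and 0.522 CPM, and Csf1r 4.27, 3.75 and 1.29 against 2.46, 4.08 and 4.03 CPM. These 2 genes overlapped between the groups with or without that library. Ptprc, with 0.474, 0.603 and 0 against 0.308, 0.272 and 0.332 CPM, and Tyrobp, with 0.514, 0.690 and 0 against 0.257, 0.490 and 0.0474 CPM, fell under the filter on low counts.

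By edgeR's quasi-likelihood F-test with Benjamini-Hochberg adjustment over all genes tested, none of the 8 genes that passed the filter changed with TGFβ in descending fibroblasts at an adjusted p under 0.05. Of all 13825 genes tested, 4.48% were called lower. Unadjusted p-values were under 0.05 for 3 of the 8 (Cd68, Lyz2 and C1qb), against 23.5% of all genes in either direction. DESeq2 called 1 of the 8, C1qb, lower, against 9.79% of 13787 genes. The log2 fold change was -1.30 ± 0.49 for Cd68 (SE, adjusted p = 0.18), -1.09 ± 0.42 for Lyz2 (adjusted p = 0.19) and -1.94 ± 0.61 for C1qb (adjusted p = 0.12). Without descending control replicate 3, all 10 genes were tested and 6 were called lower, against 26.3% of 14311 genes, in a fit of 2 control and 3 treated libraries. They were Lyz2 (-1.33 ± 0.17, adjusted p = 1.2e-07), Adgre1 (-1.88 ± 0.36, adjusted p = 5.1e-05), C1qb (-1.73 ± 0.37, adjusted p = 0.00027), C1qc (-1.57 ± 0.37, adjusted p = 0.00066), Mrc1 (-1.28 ± 0.31, adjusted p = 0.0010) and Cd68 (-0.76 ± 0.27, adjusted p = 0.021). C1qa (-0.54 ± 0.37), Ptprc (-0.80 ± 0.53), Tyrobp (-1.21 ± 0.59) and Csf1r (-0.18 ± 0.21) did not pass. In that fit 8 of the 10 genes had all treated libraries below the controls, against 34.1% of 15289 genes.

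In ascending fibroblasts, Lyz2 had 30.9, 28.3 and 20.6 CPM with TGFβ, Cd68 2.77, 2.27 and 2.53 and Csf1r 3.97, 5.02 and 3.80 CPM. Adgre1 had 1.46, 0.994 and 0.439, Mrc1 0.783, 1.18 and 0.780 and Tyrobp 0.626, 0.426 and 0.244 CPM. These 6 genes lay below all 3 ascending controls in every treated culture, also the controls that were not raised. C1qc, with 1.88, 0.852 and 1.27 CPM, did so as well, its highest treated value being just under the lowest control of 1.90 CPM, which made 7 genes of 10 against 28.8% of 15301 genes. Ptprc had 1.15, 0.521 and 1.02 CPM, C1qa 2.04, 0.947 and 1.22 and C1qb 3.24, 1.70 and 1.51 CPM, and these overlapped the controls.

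With all 6 ascending libraries, all 10 genes were called lower with TGFβ, against 27.6% of 13917 genes. The log2 fold changes ranged from -1.08 for Csf1r to -3.00 for Tyrobp, and the adjusted p from 0.0015 to 0.048 (edgeR). That count rests on replicate 2, whose high values chose the genes, so nothing is read from it. Without that culture, 8 of the 10 were called lower, against 25.8% of 14203 genes, and the median log2 fold change of the 10 was -0.74 in place of -2.29. The values were -0.62 ± 0.10 for Lyz2 (adjusted p = 3.7e-06), -1.44 ± 0.45 for Tyrobp (adjusted p = 0.0078), -0.56 ± 0.18 for Csf1r (adjusted p = 0.0082) and -0.99 ± 0.32 for C1qc (adjusted p = 0.0097). Adgre1 was at -1.08 ± 0.36 (adjusted p = 0.013), Mrc1 at -0.99 ± 0.34 (adjusted p = 0.016), C1qa at -0.86 ± 0.33 (adjusted p = 0.029) and Cd68 at -0.53 ± 0.22 (adjusted p = 0.041). Ptprc (-0.19 ± 0.41) and C1qb (-0.53 ± 0.28) did not pass. A fit of all 12 libraries together, in which the libraries that stand apart enter the shared spread, called 0 of the 10 in either site, against 7.90% of 14637 genes called lower in ascending and 13.0% in descending fibroblasts. At an unadjusted p under 0.05 it had 9 of the 10 in ascending fibroblasts, against 26.5% of genes, and 1 in descending fibroblasts, against 37.6%. The first of these counts also includes replicate 2, so nothing is read from it.

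**Figure D5:**
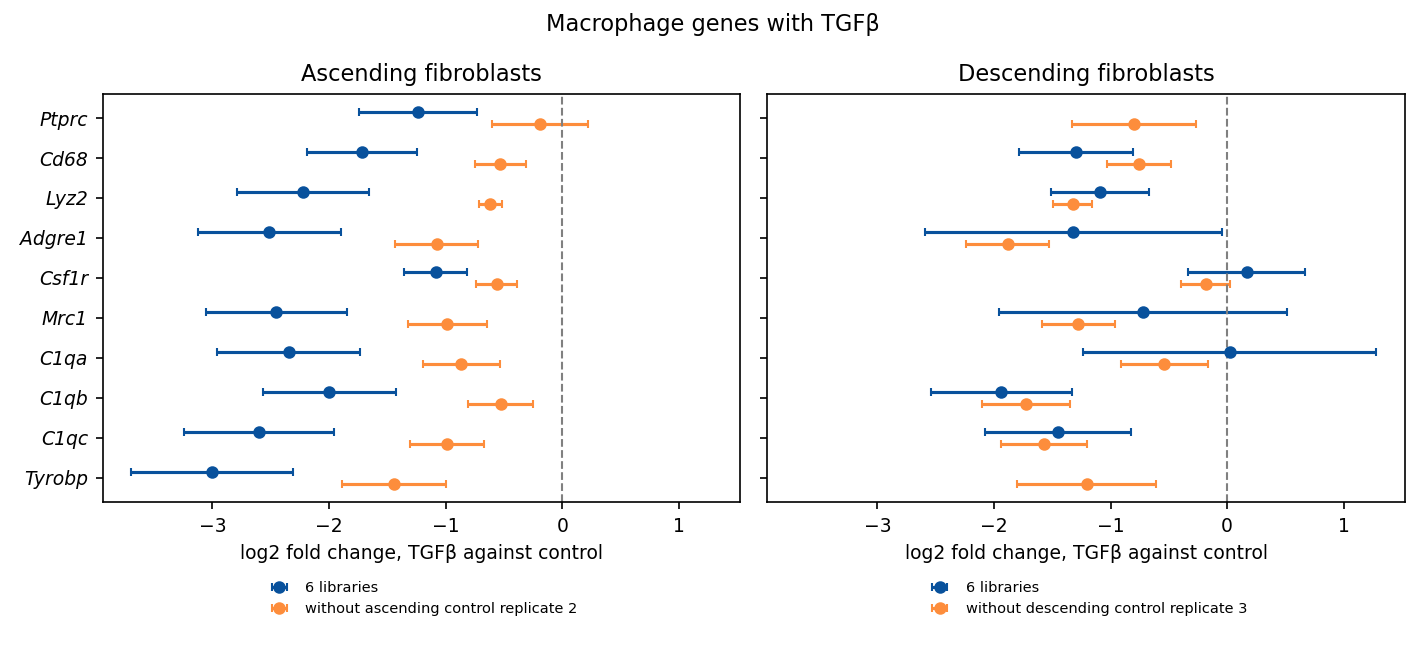
Log2 fold change of each macrophage gene with TGFβ against control (points, with SE as bars) in ascending and descending fibroblasts, from all 6 libraries of a site and from the 5 left without ascending control replicate 2 or descending control replicate 3. Ptprc and Tyrobp were below the count filter in the 6 descending libraries, and the ascending changes shrink without replicate 2.

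The 2 responses were compared by the interaction of site and TGFβ over 12 libraries. None of the 10 genes was called by edgeR, while 0.806% of 14637 genes were called in either direction. None had an unadjusted p under 0.05, against 10.0% of genes. DESeq2 called 0 of 9, against 3.85% of 12847 genes, and gave no p-value for Lyz2. All 10 estimates were negative, with a median log2 difference of -1.16, and without ascending control replicate 2 the median was 0.19. Without descending control replicate 3 as well, Lyz2 alone was called, against 13.3% of 14901 genes in either direction, at 0.72 ± 0.23 (adjusted p = 0.038), its fall with TGFβ being smaller in ascending than in descending fibroblasts. Leaving out replicate 2 of ascending control alone turned the sign for 6 of the 10 genes.

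Between the sites, the TGFβ-treated cultures included neither of the libraries that stood apart. Of 9 genes tested, 4 were higher in ascending than in descending fibroblasts with TGFβ, against 18.1% of 13678 genes. Lyz2 was higher by 1.05 ± 0.18 on the log2 scale (adjusted p = 1.7e-05), C1qb by 1.62 ± 0.38 (adjusted p = 0.0010), Ptprc by 1.53 ± 0.45 (adjusted p = 0.0079) and Cd68 by 0.65 ± 0.24 (adjusted p = 0.032). For these 4 genes all ascending values lay above all descending values, as they did for 21.5% of 14854 genes. Ptprc had 6, 5 and 7 counts and C1qb 24, 9 and 8 in descending TGFβ replicates 1 to 3. Both passed the count filter only with the ascending libraries, where they were high. Without a filter 4 of the 10 were called higher, against 9.66% of 24890 genes. Adgre1 (0.69 ± 0.43), C1qc (0.79 ± 0.40), Csf1r (0.28 ± 0.19), C1qa (0.20 ± 0.37) and Mrc1 (-0.07 ± 0.35) did not pass, and Tyrobp was under the filter. The fit of all 12 libraries called 0 of the 10, against 3.62% of 14637 genes called higher, with 0 at an unadjusted p under 0.05, against 16.2%.

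Without treatment, the comparison of sites shares its ascending and its descending controls with the TGFβ comparisons above. None of the 10 genes was called among 6 libraries, while 1.19% of 14090 genes were called higher in ascending fibroblasts. At an unadjusted p under 0.05 there were 2 (Lyz2 and Csf1r), against 12.8% of genes in either direction, and DESeq2 called 0, against 8.19% of 14047 genes. Without descending control replicate 3, 6 were called higher, against 16.4% of 14644 genes, with the raised ascending culture still in the fit. The high values of that culture chose the genes, so nothing is read from this count or from those of the 6 libraries. Without both libraries 2 were called, against 15.6% of 14440 genes, in a fit of 2 and 2 libraries. These were Csf1r at 0.66 ± 0.19 (adjusted p = 0.0072) and Lyz2 at 0.34 ± 0.08 (adjusted p = 0.0024). Levels of Csf1r in the untreated cultures were 5.75, 14.6 and 6.80 CPM in ascending and 4.27, 3.75 and 1.29 CPM in descending fibroblasts, with no overlap. Ptprc, Lyz2, Csf1r and Tyrobp, 4 of the 10, had all ascending above all descending controls, against 17.7% of 15879 genes. Without both libraries 5 did (Cd68 as well), against 28.0% of 15392 genes, and Adgre1 had all ascending below all descending controls, as 34.2% of those genes did.

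The other macrophage and myeloid genes gave a mixed account of the TGFβ response. In descending fibroblasts 2 of 18 tested were called lower, Cd53 (-3.36 ± 0.33, adjusted p = 0.0041), a tetraspanin, and Gpnmb (-1.37 ± 0.26, adjusted p = 0.030), a glycoprotein of lysosomes, against 4.48% of all genes tested. Neither was 2-fold higher in ascending control replicate 2. Cd53 had 7.39, 9.33 and 7.34 CPM in ascending control replicates 1 to 3, and Gpnmb had 229.3, 311.9 and 237.7 CPM. Without descending control replicate 3, 17 of 24 were lower and 3 higher, against 26.3% and 26.6% of 14311 genes. In ascending fibroblasts without replicate 2, 14 of 27 were lower and 4 higher, against 25.8% and 26.5% of 14203 genes, with Cd53 at -3.38 ± 0.23, Spi1 at -1.65 ± 0.54 and Cybb at -1.35 ± 0.41 among the lower ones. Those that rose included Ncf1 (2.18 ± 0.57, adjusted p = 0.0020), a subunit of the phagocyte oxidase, and Ctsc (0.64 ± 0.09, adjusted p = 6.4e-07), a lysosomal protease. With TGFβ, 9 of 19 were higher in ascending than in descending fibroblasts and 1, Gpnmb, was lower, against 18.1% and 18.2% of 13678 genes, with Mpeg1 (1.81 ± 0.27), Itgb2 (1.86 ± 0.37) and Ctss (1.45 ± 0.30) among the higher ones. Itgb2, with 12, 11 and 6 counts in descending TGFβ replicates 1 to 3, passed the filter only with the ascending libraries.

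Of 12 genes that act with the members, 10 were tested, while Csf2 was listed at 0 in all libraries and Hcst had at most 3 counts. Csf1, the growth factor that acts on the product of Csf1r, had between 2154 and 2792 CPM in all 12 libraries and changed by 0.18 ± 0.03 on the log2 scale with TGFβ in ascending fibroblasts (adjusted p = 0.00015) and was at -0.07 ± 0.11 in descending fibroblasts (adjusted p = 0.74), or 0.0043 ± 0.046 without descending control replicate 3 (adjusted p = 0.94). Il34, which encodes the other ligand, fell in ascending fibroblasts by 0.80 ± 0.12 (adjusted p = 1.8e-05). In descending fibroblasts Il34 was at -0.85 ± 1.33 (adjusted p = 0.74) with control replicate 3, in which it was listed at 0, and at -1.42 ± 0.13 (adjusted p = 1.0e-10) without it. C1ra and C1s1, the proteases that bind C1q, fell by 0.79 ± 0.07 and 0.96 ± 0.06 in ascending and by 1.34 ± 0.12 and 1.58 ± 0.12 in descending fibroblasts. Serping1, the inhibitor of those proteases, fell by 1.60 ± 0.04 and 1.99 ± 0.13 on the same scale, and the 6 changes of these 3 genes had adjusted p-values of at most 0.0034. Without descending control replicate 3 the descending changes of C1ra, C1s1 and Serping1 were -1.39 ± 0.08, -1.64 ± 0.06 and -1.91 ± 0.06. Among the 12 genes of this list, which includes Csf1r, 3 were higher and 5 lower of 10 tested with TGFβ in ascending fibroblasts, against 28.2% and 27.6% of all genes tested. In descending fibroblasts 1 was higher and 3 lower, against 3.59% and 4.48%, and without descending control replicate 3 it was 3 higher and 4 lower, against 26.6% and 26.3%. Of the 10 with at least 20 counts, Csf1r alone was raised 2-fold in ascending control replicate 2.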

How the data were processed

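RNA was sequenced by the authors from 12 fibroblast cultures, and the deposited table holds raw read counts per gene symbol, without normalization. Per the labels and the methods, paired-end reads were aligned to mm10 with STAR and counted with featureCounts, whose strand and feature settings and versions are not given in the sources used here. The methods and the labels differ in the age of the mice, and the age printed is that of the labels. Groups were taken from the sample titles. The 10 genes, the marker lists and the tests were chosen with earlier results of these data known. Counts were tested in R 4.3.3 with edgeR 4.0.16 (quasi-likelihood F-test, TMM normalization, filterByExpr at its default minimum of 10 counts and 15 in total, each fit using only the libraries it compares). A gene could pass that filter through the libraries of 1 group alone. P-values were adjusted by Benjamini-Hochberg over all genes of a fit, with a threshold of 0.05. Normalized CPM are counts scaled by the TMM-adjusted library size, and log2 CPM used a prior count of 2. Libraries held 16250126 to 23892943 counts, and replicate error and intervals are as stated beside the values. The fitting scripts were tested on simulated data. Alternatives were DESeq2 1.42.0, its size factors, other filters, the replicate number as a block, 1 fit of all 12 libraries and leaving out libraries. Leaving out 2 libraries together was added after seeing the data. Genes named are the 10 members, up to 4 of each further list by mean CPM plus those a result turns on, the 15 genes with the largest ratio in ascending control replicate 2 among those with at least 20 counts there (denominator at least 3 counts), and the 10 genes most like the members by Pearson's r. Exonic overlap and 50-base sequence sharing were computed from GENCODE vM21. Some genes that these rules select are not reported here.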

Additional observations from a re-analysis of the deposited data

How the results depend on the processing

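The ratio of ascending control replicate 2 to its replicates stayed within its counting interval under DESeq2's size factors and under library totals alone, for the sum and for each of the 10 genes. Depth limits Ptprc and Tyrobp, which had 0 to 16 counts in the descending libraries. Cultures with the same replicate number had correlations of deviations from -0.03 to 0.07. Between untreated sites these were 0.061, 0.030 and 0.065, against at most 0.037, -0.0053 and -0.054 for other numbers. All were near 0, no source states a pairing, and the main fits above used no block. The cause of the differences below was not tested.

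With the replicate number as a block, DE genes were 95 for TGFβ in descending fibroblasts, 0 between untreated sites and 50 for the interaction, against 1115, 374 and 118. Of the members, Mrc1 turned to 0.14 for TGFβ in descending fibroblasts and C1qb to 0.27 for the interaction, and 9 of 10 were called for TGFβ in ascending fibroblasts. DESeq2 gave 2531, 1151 and 494 DE genes in the same order and called 1 macrophage gene in descending fibroblasts. No filter gave 56 for the interaction. In 1 fit of 12 libraries there were 2338 and 3570 DE genes for TGFβ in ascending and descending fibroblasts, and 1545 and 1106 between sites in control and with TGFβ. It called 0 macrophage genes for TGFβ in ascending fibroblasts and 0 between sites with TGFβ, and put C1qa at -0.0080 in descending fibroblasts. A minimum of 10 counts in every library left 5 macrophage genes tested between sites with TGFβ, of which 2 were called. Sums without Lyz2 and Cd68 were 12.9 CPM in descending control, 8.37 in descending TGFβ and 12.4 in ascending TGFβ.

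Without ascending control replicate 2 and descending control replicate 3 together, DE genes numbered 4453 between untreated sites and 1975 for the interaction, with 2 and 1 macrophage genes called. Between untreated sites Adgre1 was then at -0.11 and Mrc1 at -0.36. For the interaction Ptprc was at 0.61, Cd68 at 0.23, Lyz2 at 0.72, Adgre1 at 0.81, Mrc1 at 0.30, C1qb at 1.20 and C1qc at 0.59.

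With each library omitted once, the fits gave 213 to 7576 DE genes for TGFβ in descending fibroblasts, 33 to 4631 between untreated sites and 25 to 2022 for the interaction, the highest each without descending control replicate 3. Macrophage genes called ranged from 0 to 6 for the first and for the second, and from 2 (without ascending TGFβ replicate 1) to 5 (without descending TGFβ replicate 1) between sites with TGFβ. The log2 fold change with TGFβ in descending fibroblasts ranged from -0.18 to 0.46 for Csf1r, from -1.28 to 0.048 for Mrc1 and from -0.54 to 0.91 for C1qa. Between sites it ranged from -0.11 to 1.61 for Cd68 untreated, and with TGFβ from -0.30 to 0.092 for Mrc1 and from -0.18 to 0.68 for C1qa. The interaction ranged from -1.44 to 0.12 for Ptprc, -0.96 to 0.75 for Cd68, -1.57 to 0.47 for Lyz2, -1.60 to 0.26 for Adgre1, -0.49 to 1.41 for C1qb and -1.61 to 0.48 for C1qc. Counting all alternatives for single genes (fold changes and ratios), 554 were the same, 28 lost a call, 16 gained one and 32 turned direction. The same meant an unchanged direction and call for a fold change, and a value within the counting interval for a ratio.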

Other observations

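Beyond macrophage genes, a few genes of other cells were also higher in ascending control replicate 2. They were named after their values were seen and carry no test. The mast cell protease genes Cma1, Tpsb2 and Mcpt4 had 19, 13 and 8 counts in that library. Cma1 had 0 and 5 counts in replicates 1 and 3, Tpsb2 had 0 in both, and Mcpt4 had 2 and 0. Cpa3, a mast cell carboxypeptidase, had 22 counts against 10 and 14. Of 5 adipocyte genes, 4 were at least 2-fold above both other replicates, at 4.56 (Adipoq), 3.54 (Cidec), 2.69 (Cfd) and 2.69 (Plin1) times the higher one. Such an excess held for 1.37% of 13309 genes. Adipoq, which encodes adiponectin, had 0.303, 1.99 and 0.437 CPM in the ascending controls and 10.8, 14.2 and 10.3 CPM in the descending controls, while Pparg, the fifth gene, had 9.21, 9.33 and 8.94 CPM in the ascending controls.

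The gene furthest below both other replicates in that library was Msln, the mesothelial marker mesothelin, with 82, 6 and 26 counts in ascending control replicates 1 to 3. Its level was 4.22-fold below the lower of the others. Upk3b, another mesothelial gene, had 34.8, 29.0 and 37.0 CPM.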
